A study of Mus musculus with 12 samples.

Results

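The genes described here are 45 genes of G2 phase and mitosis, taken from a list of symbols and found by gene name in both deposited count tables, out of 55487 genes in each. They cover the cyclins and kinases that start mitosis, the spindle checkpoint, the centromere and kinetochore, the spindle, cytokinesis and chromosome condensation. The libraries came from mouse bone marrow cells in 4 groups of 3. MA9 sPrdm16 and MA9 mock cells carried a retroviral MLL::AF9 fusion, a driver of acute myeloid leukaemia, and then received a second retrovirus that expressed sPrdm16 or was a mock. WT sPrdm16 and WT mock cells were normal marrow cells that received the same 2 kinds of second virus, so all 4 groups were transduced. sPrdm16 is the labels' name for a form of Prdm16, a zinc-finger regulator of transcription, and the study asked what underlies the resistance to chemotherapy that it drives. The labels give a medium with 10% serum and 5 ng/ml IL-3 for MA9 cells and none for WT cells. They name no age, sex or strain, no sorted fraction, and no clone or number of animals. Whether the replicates are separate cultures or animals is not stated, and a p-value here measures only the spread between these libraries, which may be technical.

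Cells enter mitosis when cyclin B bound to the kinase Cdk1 becomes active, with Plk1, the Aurora kinases and the Cdc25 phosphatases feeding into that switch. The spindle checkpoint then holds Cdc20, the activator of the anaphase-promoting complex, until every kinetochore is attached to the spindle, after which cyclin B and securin are degraded and the cell divides. Most of these genes are transcribed mainly in G2 and M phase and are repressed in resting cells, under the MuvB complexes DREAM and B-MYB and the factor Foxm1, so that their RNA is widely used as a sign of cycling cells. In bulk RNA a lower share of cycling cells and less of these RNAs per cell cannot be told apart.

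Prdm16 followed the labels, with 5733, 8889 and 5353 counts where MA9 cells got sPrdm16 and 0 in each of their mock libraries. It had 950, 708 and 793 counts in WT sPrdm16, against 22, 18 and 0 in WT mock, and counts from the vector and the genomic locus were not separated. Total counts were 17217123 to 37390897 per library. Ribosomal, 7SL and other structural RNAs took 18.6% to 18.8% of the counts in MA9 sPrdm16, against 59.1% to 74.2% in MA9 mock, and 1.41% to 2.46% in the WT libraries. MA9 mock replicate 3 stood apart, with 3844571 counts in nuclear protein-coding genes. The cells are labelled bone marrow cells only. Of 4 general blood cell genes all had counts in every group, while of 6 lymphocyte markers 4 were at 0 in every MA9 sPrdm16 library.

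A feature that the selection of the 45 genes did not use, found in most but not all of those examined, lies in their promoters. RefSeq promoters (GRCm38.p6, 250 bases before to 50 bases after the start) were matched for 36 of the 45 genes. The cell cycle genes homology region (CHR), to which MuvB complexes bind, was searched as TTTGAA or TTCGAA, and the CCAAT box, the site of NF-Y, as CCAAT, each on both strands and with overlapping hits counted. TTCGAA reads the same on both strands. A gene was counted where any of its promoters held the letters. CHR letters were present for 29 of the 36 genes (80.6%). The shares were 17.0% of the 9966 genes tested in WT cells that had a promoter and 21.7% of all 27025 genes with one. CCAAT was present for 28 (77.8%), against 43.3% and 41.1%. Both together were present for 26 (72.2%), against 7.31% and 8.61%. A match of letters is a description and not a binding site. The stretches below run from 100 bases before to 30 bases after the start of 7 genes. These are genes of mitotic entry, the spindle checkpoint and the midzone, chosen after their values were seen. The CHR and CCAAT letters searched are in capitals, and 6 of the stretches hold a CHR in a spelling searched. Ccnb1, whose window holds CCAAT and neither of these spellings, is shown beside Ccnb2 because both encode B-type cyclins. Other spellings of the CHR were not searched, so a gene without these letters may still hold one.
Ccnb1, chr13:100786457-100786586, minus strand: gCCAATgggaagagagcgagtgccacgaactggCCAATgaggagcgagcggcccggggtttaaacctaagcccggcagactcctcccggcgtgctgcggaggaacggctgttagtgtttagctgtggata
Ccnb2, chr9:70421525-70421654, minus strand: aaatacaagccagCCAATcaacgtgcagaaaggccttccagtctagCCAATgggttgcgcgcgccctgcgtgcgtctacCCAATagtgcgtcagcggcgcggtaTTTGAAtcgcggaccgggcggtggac
Cdk1, chr10:69352883-69353012, minus strand: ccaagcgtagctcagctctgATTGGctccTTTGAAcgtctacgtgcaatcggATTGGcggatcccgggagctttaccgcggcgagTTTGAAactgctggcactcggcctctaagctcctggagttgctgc
Cdc20, chr4:118437314-118437443, minus strand: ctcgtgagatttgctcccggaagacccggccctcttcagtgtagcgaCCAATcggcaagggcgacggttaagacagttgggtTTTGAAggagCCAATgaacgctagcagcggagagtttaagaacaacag
Bub1, chr2:127831830-127831959, minus strand: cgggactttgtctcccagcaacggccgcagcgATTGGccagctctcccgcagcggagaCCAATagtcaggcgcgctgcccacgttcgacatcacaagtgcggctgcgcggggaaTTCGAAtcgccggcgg
Prc1, chr7:80294351-80294480, plus strand: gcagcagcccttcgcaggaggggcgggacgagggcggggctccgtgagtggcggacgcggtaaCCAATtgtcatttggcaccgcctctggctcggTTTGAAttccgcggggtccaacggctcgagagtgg
Racgap1, chr15:99651627-99651756, minus strand: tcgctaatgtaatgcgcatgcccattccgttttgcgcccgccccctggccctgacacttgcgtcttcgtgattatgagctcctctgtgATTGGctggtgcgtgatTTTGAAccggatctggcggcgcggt
In Ccnb2 the CHR starts 5 bases after the transcription start and 3 CCAAT boxes lie before it, at -87, -54 and -21. Cdk1 has a CHR at -71 and another at -15, and the CHR of Prc1 lies at -5. The promoter of Bub1 carries the TTCGAA spelling, at 15 bases after the start. The 29 genes with CHR letters had a median log2 fold change of 0.75 with sPrdm16 in WT cells and the 7 without them 0.49, with 25 and 5 rises. In MA9 cells the medians were 0.14 and 0.06, with 9 rises among the 29 and 3 among the 7. The 28 genes with CCAAT and the 8 without it had medians of 0.71 and 0.55 in WT cells, with 23 and 7 rises, and of 0.14 and 0.16 in MA9 cells, with 9 and 3 rises.

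CPM values (counts scaled to a fixed library total) given for single genes were scaled within each genotype's own table, so they compare sPrdm16 with mock and not MA9 with WT. Summed over the 45 genes, they came to 5302 to 5471 CPM in the MA9 sPrdm16 libraries and 4634 to 5002 CPM in MA9 mock. In the WT sPrdm16 libraries the sum was 2593 to 2695 CPM, against 1709 to 1783 CPM in WT mock. The groups did not overlap in either genotype. Much of the MA9 gap lay in Mki67 and Top2a. Without these 2 genes the sums were 3386 to 3451 CPM in MA9 sPrdm16 and 3167 to 3355 CPM in MA9 mock. In WT cells the sums without them were 2229 to 2358 CPM with sPrdm16 and 1475 to 1530 CPM in mock. As a share of the counts in nuclear protein-coding genes, which does not move with structural RNA, the 45 genes held 1.17% to 1.20% in MA9 sPrdm16 and 1.05% to 1.11% in MA9 mock. They held 0.292% to 0.305% in WT sPrdm16, against 0.176% to 0.180% in WT mock. All 45 passed the filter on low counts in each fit.

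**Figure D1:**
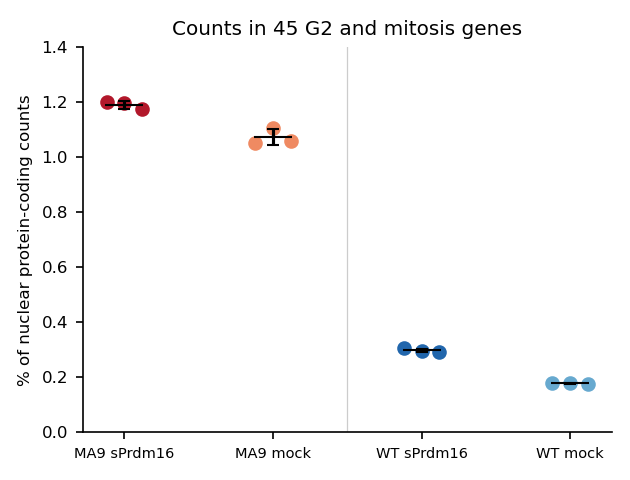
Share of nuclear protein-coding counts (%, y axis) held by the 45 G2 and mitosis genes in each of the 12 libraries (points), with the mean and SD of each group of 3 (bars). The WT sPrdm16 libraries lie at 0.292% to 0.305%, above the WT mock libraries at 0.176% to 0.180%, and both MA9 groups lie above 1%.

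In MA9 cells the fold changes of the mitotic genes with sPrdm16 lay between -0.58 and 0.64 on the log2 scale. Of the 45, 13 rose, 2 fell and 30 did not pass the test, with a median log2 fold change of 0.13 against 0.03 for all genes tested. Rises reached 17.1% and falls 17.5% of all genes, so the share of falls among the mitotic genes was below the background and that of rises above it. Counted in either direction, 33.3% of the 45 passed the test, near the 34.6% of all genes. The B-type cyclin Ccnb2 rose most, by 0.64, followed by the spindle gene Nusap1 (0.56) and the condensin gene Ncaph (0.46). The checkpoint kinase gene Bub1b and the passenger complex gene Incenp fell. Leaving out MA9 sPrdm16 replicate 1, 2 or 3 left 6, 7 and 8 rises, and leaving out MA9 mock replicate 3 gave 17 rises and 4 falls. Without MA9 mock replicate 3 the rises of Bub3 (0.23), Ube2c (0.45), Cenpf (0.21), Spc24 (0.31) and Prc1 (0.18) and the falls of Cdc25b (-0.47) and Cenpe (-0.15) passed the test, and Smc2 did not (0.17, edgeR adjusted p = 0.0509). Over the 15 alternatives the MA9 call of Smc2 was lost under 10, those of Kif20a and Kif23 under 9 each and that of Ccnb1 under 7. Plk1 lost its call without any 1 of the 3 MA9 sPrdm16 libraries, Kif2c without replicate 1 or 3 of them and Top2a without replicate 1 or 2, and Bub1b with all 12 libraries in the fit. Under every alternative but total counts the calls of Ccnb2, Bub1, Incenp, Nusap1, Racgap1, Ncaph and Mki67 stood. Scaled to total counts alone all 45 rose, with a median of 1.54 against 1.43 for all genes, so each direction given for MA9 cells is set against the median gene.

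In WT cells most of the mitotic genes rose. Of the 45, 37 rose, 0 fell and 8 did not pass the test, with a median log2 fold change of 0.76 against 0.01 for all genes. Over all genes tested 17.5% rose and 16.6% fell. The largest rises were those of the checkpoint kinase gene Bub1 (1.38, 2.61-fold), the motor gene Kif2c (1.34) and the phosphatase gene Cdc25c (1.18). The 8 genes that did not pass were Ccna2, Cdc25b, Bub3, Cenpe, Nuf2, Spc25, Ect2 and Smc4, and of these Smc4 alone had a fold change below 0 (-0.08). The count of falls was 0 with edgeR, DESeq2 and limma-voom, and 0 at an unadjusted p under 0.05 with each. Over the 15 alternatives the WT call of Cenpf was lost under 10, that of Ttk under 6 and that of Ndc80 under 5. Nusap1, Smc2 and Mki67 lost theirs under 4 each, Ccnb2 and Ncapg under 3, Mad2l1 under 2, and Ube2c, Kif23 and Foxm1 under 1. Leaving out WT sPrdm16 replicate 1, 2 or 3 ended 8, 9 and 7 of the 37 calls, and leaving out WT mock replicate 1, 2 or 3 ended 6, 3 and 4.

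The effect of sPrdm16 differed between the genotypes in 24 of the 45 genes, in each of which it was lower in MA9 than in WT cells. The test was an interaction term fitted on all 12 libraries together. Over all genes tested the effect was higher in MA9 for 16% and lower for 12%, and it was higher for 0 of the 45 with edgeR (2 at an unadjusted p under 0.05), DESeq2 and limma-voom. The median difference, MA9 effect minus WT effect, was -0.59 for the mitotic genes and 0.08 for all genes, and 40 of the 45 lay below 0. With total counts the median of all genes moved to 1.21, that of the mitotic genes stood at 0.57, and 17 differences were called higher in MA9 and 0 lower. With total counts left aside, the called difference of Ncaph was lost under 12 alternatives, that of Kif20a under 9, those of Hmmr and Foxm1 under 8 each and that of Top2a under 7. The difference of Spc24 was lost under 4, that of Kif11 under 2 and that of Aurkb under 1. Without MA9 mock replicate 3 the difference was -0.69 for Kif20a and -0.58 for Ncaph, which no longer passed, and -0.84 for Cdc25b and -0.41 for Cenpa, which did. The 13 genes that rose in MA9 cells also rose in WT cells, where 37 of the 45 rose. Of the other 24 WT rises, 22 did not pass the test in MA9 cells and 2 fell there. Across the 45 genes, the log2 fold changes in MA9 and WT cells had a Pearson correlation of 0.03 and a Spearman correlation of 0.12. The fits share no library, and genes are not independent replicates.

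**Figure D2:**
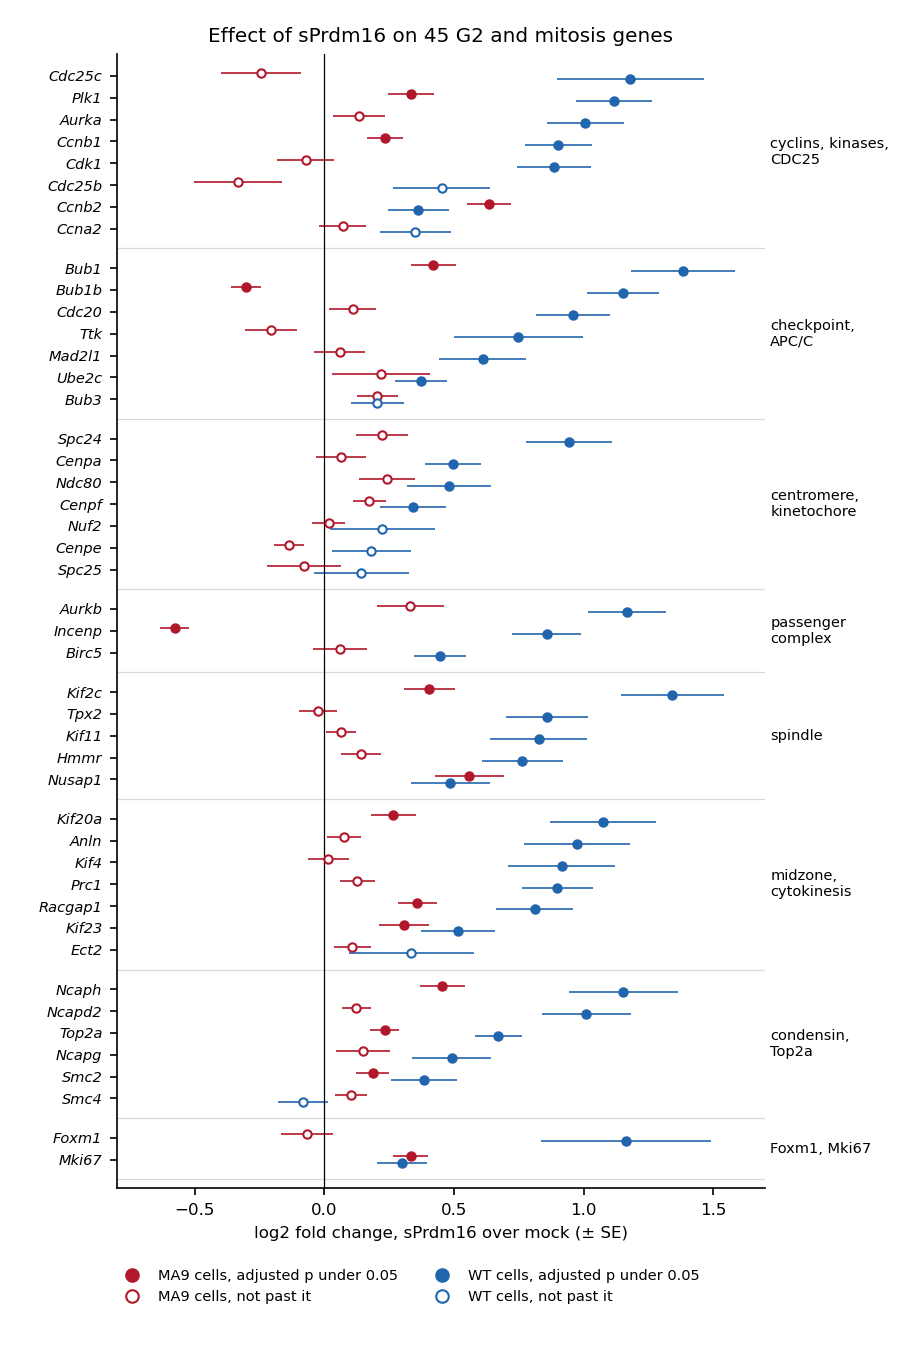
Log2 fold change of sPrdm16 over mock (x axis, bars are SE) for each of the 45 genes, in MA9 cells (red) and WT cells (blue), grouped by role, with filled points past an adjusted p of 0.05. WT values lie at up to 1.38 and MA9 values between -0.58 and 0.64.

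Of the 8 genes for cyclins, mitotic kinases and Cdc25 phosphatases, 6 rose in WT cells and 3 in MA9 cells, and the effect was lower in MA9 for 5. Ccnb1, the cyclin that activates Cdk1 at mitotic entry, stood at 69.7, 72.1 and 65.1 CPM in the MA9 sPrdm16 libraries, against 56.5, 60.3 and 59.2 CPM in MA9 mock. The WT libraries gave 86.6, 80.1 and 66.1 CPM in the WT sPrdm16 libraries, against 45.7, 40.7 and 38.1 CPM in WT mock. The groups did not overlap in either genotype. Ccnb1 rose in MA9 cells by 0.23 (SE 0.07, edgeR adjusted p = 0.0279) and in WT cells by 0.90 (SE 0.13, edgeR adjusted p = 0.0001), a difference between effects of -0.59 (SE 0.16, edgeR adjusted p = 0.00898). Its processed pseudogene Ccnb1-ps had 3.37% as many counts, so part of the reads may have been split between them. Ccnb2 (ENSMUSG00000032218.7, chr9:70407692-70421547 in mm10), the second B-type cyclin, stood at 55.0, 51.2 and 48.7 CPM in the MA9 sPrdm16 libraries, against 34.9, 31.1 and 33.7 CPM in MA9 mock. WT cells had 61.7, 65.5 and 59.3 CPM in the WT sPrdm16 libraries, against 44.1, 50.3 and 50.6 CPM in WT mock. All 3 sPrdm16 libraries were above all 3 mock libraries in both genotypes. Unlike most of the 45, Ccnb2 had the larger fold change in MA9 cells, 0.64 (SE 0.08, edgeR adjusted p = 0.000434) against 0.36 (SE 0.12, edgeR adjusted p = 0.0265) in WT cells, and the difference did not pass the test (log2 0.36, SE 0.15, edgeR adjusted p = 0.0839).

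Cdk1, the kinase of mitotic entry, overlapped between the MA9 groups, with 61.3, 63.8 and 58.8 CPM in the MA9 sPrdm16 libraries, against 76.8, 57.2 and 58.9 CPM in MA9 mock. In WT cells it did not overlap, with 80.4, 85.9 and 79.9 CPM in the WT sPrdm16 libraries, against 50.7, 48.8 and 33.8 CPM in WT mock. Cdk1 rose in WT cells (log2 0.88, SE 0.14, edgeR adjusted p = 0.000254), stood at -0.07 in MA9 cells (SE 0.11), and differed between them by -0.87 (SE 0.20, edgeR adjusted p = 0.00269). Plk1, the Polo kinase of centrosome maturation and mitotic entry, had 45.02, 45.1 and 47.2 CPM in the MA9 sPrdm16 libraries, against 32.7, 39.7 and 36.5 CPM in MA9 mock. Its WT values were 62.9, 62.5 and 50.6 CPM in the WT sPrdm16 libraries, against 31.5, 24.5 and 25.1 CPM in WT mock. Its groups were apart in both genotypes, and it rose by 0.33 (SE 0.09, edgeR adjusted p = 0.0166) in MA9 and 1.12 (SE 0.15, edgeR adjusted p = 4.0e-05) in WT cells. The difference between its effects was -0.70 (SE 0.18, edgeR adjusted p = 0.00627). Cdc25c, a phosphatase that activates Cdk1, was among the lowest of the 45, at 9.17, 9.24 and 9.01 CPM in the MA9 sPrdm16 libraries, against 10.00, 9.59 and 13.4 CPM in MA9 mock. Its WT values were 11.3, 8.11 and 9.20 CPM in the WT sPrdm16 libraries, against 3.65, 3.86 and 5.09 CPM in WT mock. In MA9 cells the sPrdm16 libraries lay below the mock libraries but did not pass the test (log2 -0.25, SE 0.15, edgeR adjusted p = 0.251), and in WT cells they lay above and rose (log2 1.18, SE 0.28, edgeR adjusted p = 0.00503). The difference between these effects was -1.35 (SE 0.31, edgeR adjusted p = 0.00299). Aurka, the Aurora kinase of the spindle poles, rose in WT cells by 1.01 and stood at 0.13 in MA9 cells. The S and G2 cyclin gene Ccna2 and Cdc25b passed the test in neither. Exosc9, on the opposite strand over part of Ccna2, held 42.6% as many counts, and its log2 fold change was -0.34 in MA9 cells (edgeR adjusted p = 0.0176) and 0.51 in WT cells (edgeR adjusted p = 0.0192).

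**Figure D3:**
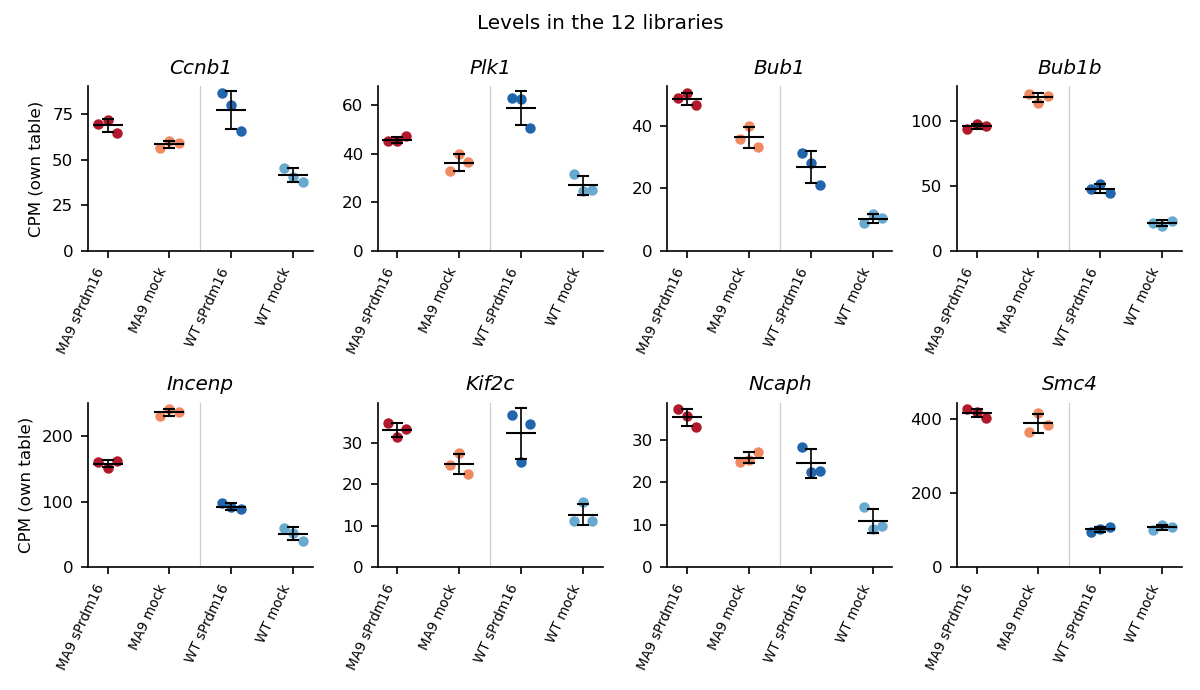
CPM of 8 of the genes in the 12 libraries (points), scaled within each genotype's own table, with mean and SD (bars); the vertical line parts the 2 tables. Bub1b and Incenp are lower in MA9 sPrdm16 than in MA9 mock and higher in WT sPrdm16 than in WT mock, and Smc4 overlaps in both genotypes.

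Among the 7 genes of the spindle checkpoint and of anaphase-promoting complex activation, 6 rose in WT cells, while in MA9 cells 1 rose and 1 fell. Bub1, a checkpoint kinase that also marks centromeric chromatin (ENSMUSG00000027379.13, chr2:127801122-127831865 in mm10), stood at 49.0, 50.4 and 46.6 CPM in the MA9 sPrdm16 libraries, against 35.7, 39.7 and 33.2 CPM in MA9 mock. The WT libraries gave 31.1, 28.2 and 21.1 CPM in the WT sPrdm16 libraries, against 8.79, 11.6 and 10.4 CPM in WT mock. The groups were apart in both genotypes, and in WT cells the lowest sPrdm16 library was well above the highest mock library. Bub1 rose by 0.42 (SE 0.09, edgeR adjusted p = 0.00485) in MA9 cells and by 1.38 (SE 0.20, edgeR adjusted p = 0.000103) in WT cells, with a difference between effects of -0.88 (SE 0.21, edgeR adjusted p = 0.00424). Bub1b (ENSMUSG00000040084.9, chr2:118598211-118641591 in mm10) encodes BubR1, a part of the complex that holds Cdc20. It moved in opposite directions, with 94.3, 98.1 and 96.2 CPM in the MA9 sPrdm16 libraries, against 121, 115 and 119.9 CPM in MA9 mock. In WT cells Bub1b had 47.6, 51.5 and 44.8 CPM in the WT sPrdm16 libraries, against 21.9, 19.4 and 23.4 CPM in WT mock. No library overlapped between the groups of either genotype. The gene fell in MA9 cells by 0.30 on the log2 scale (SE 0.06, edgeR adjusted p = 0.00310) and rose in WT cells by 1.15 (SE 0.14, edgeR adjusted p = 2.1e-05). Its difference between effects, -1.37 (SE 0.13, edgeR adjusted p = 6.5e-07), had the smallest p of the 45. With total counts its MA9 value was 1.11, below the median of 1.43 for all genes.

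Of the other checkpoint genes, the kinase gene Ttk (Mps1) rose in WT cells by 0.75 and stood at -0.21 in MA9 cells, where its sPrdm16 libraries lay below the mock libraries without passing the test. Mad2l1, which encodes the Mad2 inhibitor of Cdc20, rose in WT cells by 0.61 and Cdc20 itself by 0.96. In MA9 cells the 2 stood at 0.06 and 0.11. Cdc20 overlaps Elovl1 on the opposite strand, and the strand setting of the counting is not given in the sources used here. Elovl1 held 176% as many counts as Cdc20, and its WT log2 fold change was 0.10 (edgeR adjusted p = 0.437). Ube2c, the ubiquitin-conjugating enzyme of the anaphase-promoting complex, rose in WT cells by 0.37. Bub3, the WD-repeat partner of Bub1 and BubR1, passed the test in neither genotype (0.20 in MA9 and 0.20 in WT cells).

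The 7 genes of the centromere and kinetochore had the lowest median fold change of the 8 roles in WT cells. In MA9 cells 0 passed the test with edgeR, and 2 had an unadjusted p under 0.05, 1 in each direction. DESeq2 called 1 of the 7 lower and limma-voom called 1 higher. In WT cells 4 rose, with a median of 0.34. Cenpa, the histone H3 variant of centromeres, stood at 43.2, 42.7 and 48.5 CPM in the MA9 sPrdm16 libraries, against 41.6, 47.7 and 38.8 CPM in MA9 mock. In WT cells it had 92.8, 87.3 and 91.9 CPM in the WT sPrdm16 libraries, against 71.1, 61.7 and 60.0 CPM in WT mock, with no overlap, and rose by 0.50 (SE 0.11, edgeR adjusted p = 0.00232). Spc24, a subunit of the NDC80 complex that binds microtubules, stood at 26.9, 25.4 and 25.7 CPM in the MA9 sPrdm16 libraries, against 21.4, 20.8 and 25.2 CPM in MA9 mock, a change that did not pass the test (log2 0.22, SE 0.10, edgeR adjusted p = 0.122). WT cells had 29.4, 30.6 and 37.6 CPM in the WT sPrdm16 libraries, against 16.1, 18.8 and 15.9 CPM in WT mock. Spc24 rose there by 0.94 (SE 0.16, edgeR adjusted p = 0.000479) and was the member of this role with a called difference between effects (-0.64 (SE 0.19, edgeR adjusted p = 0.0186)). The other NDC80 subunits went less far. Ndc80 rose in WT cells by 0.48, while Nuf2 (0.22) and Spc25 (0.14) did not pass.

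Cenpf, a large protein of the outer kinetochore, had 198, 196 and 197 CPM in the MA9 sPrdm16 libraries, against 161, 179 and 184 CPM in MA9 mock. These groups did not overlap, but the change did not pass the test (log2 0.17, SE 0.06, edgeR adjusted p = 0.0616). In WT cells Cenpf had 48.7, 49.98 and 51.6 CPM in the WT sPrdm16 libraries, against 39.1, 35.8 and 43.6 CPM in WT mock and rose by 0.34 (SE 0.13, edgeR adjusted p = 0.0487), a call lost under 10 of 15 alternatives. Cenpe, the kinetochore motor that carries chromosomes to the spindle equator, had 217, 214 and 216 CPM in the MA9 sPrdm16 libraries, against 251, 227 and 232 CPM in MA9 mock. Its MA9 sPrdm16 libraries lay below the mock libraries without passing (log2 -0.14, SE 0.06, edgeR adjusted p = 0.0992). In WT cells it overlapped, with 52.0, 75.3 and 67.4 CPM in the WT sPrdm16 libraries, against 47.8, 57.2 and 66.8 CPM in WT mock, and stood at 0.18 (SE 0.15).

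The chromosomal passenger complex corrects faulty attachments and later guides cytokinesis, and all 3 of its listed genes rose in WT cells. Incenp (ENSMUSG00000024660.9, chr19:9872296-9899551 in mm10), its scaffold, stood at 161, 151 and 161 CPM in the MA9 sPrdm16 libraries, against 229.8, 239.8 and 236 CPM in MA9 mock. In WT cells Incenp stood at 97.6, 91.1 and 88.6 CPM in the WT sPrdm16 libraries, against 60.5, 51.9 and 40.8 CPM in WT mock. All MA9 sPrdm16 libraries were below, and all WT sPrdm16 libraries above, their mock libraries. Incenp fell in MA9 cells by 0.58 on the log2 scale (SE 0.06, edgeR adjusted p = 7.8e-05), rose in WT cells by 0.86 (SE 0.13, edgeR adjusted p = 0.000196), and differed by -1.35 (SE 0.15, edgeR adjusted p = 3.3e-06). With total counts its MA9 value was 0.84, the lowest of the 45 and below the median of all genes. Aurkb, the kinase of the complex, stood at 41.9, 41.7 and 40.2 CPM in the MA9 sPrdm16 libraries, against 29.9, 40.3 and 27.5 CPM in MA9 mock, which overlapped and did not pass the test (log2 0.33, SE 0.13, edgeR adjusted p = 0.0770). In WT cells Aurkb had 67.2, 54.1 and 49.9 CPM in the WT sPrdm16 libraries, against 29.0, 23.7 and 23.5 CPM in WT mock and rose by 1.17 (SE 0.15, edgeR adjusted p = 3.5e-05). Birc5 (survivin) rose in WT cells by 0.45 and stood at 0.06 in MA9 cells. Within MA9 cells, the scaffold thus fell while the kinase and survivin stood above 0 without passing the test.

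All 5 genes of spindle motors and assembly factors rose in WT cells, and 2 in MA9 cells. Kif2c (MCAK), which takes apart microtubule ends at centromeres (ENSMUSG00000028678.13, chr4:117159639-117182639 in mm10), had 34.7, 31.3 and 33.3 CPM in the MA9 sPrdm16 libraries, against 24.6, 27.5 and 22.5 CPM in MA9 mock. It had 36.7, 25.4 and 34.5 CPM in the WT sPrdm16 libraries, against 11.2, 15.7 and 11.3 CPM in WT mock, with WT replicate 2 the lowest of its sPrdm16 group. Both genotypes were without overlap, and Kif2c rose by 0.41 (SE 0.10, edgeR adjusted p = 0.0112) in MA9 and 1.34 (SE 0.20, edgeR adjusted p = 0.000119) in WT cells. Nusap1, which bundles spindle microtubules, had 59.6, 56.9 and 55.9 CPM in the MA9 sPrdm16 libraries, against 30.4, 41.5 and 46.1 CPM in MA9 mock. The WT libraries gave 32.3, 29.0 and 33.1 CPM in the WT sPrdm16 libraries, against 21.8, 25.3 and 20.4 CPM in WT mock. Nusap1 was one of the few genes with about the same fold change in both, 0.56 (SE 0.13, edgeR adjusted p = 0.00980) in MA9 and 0.49 (SE 0.15, edgeR adjusted p = 0.0233) in WT cells, and the difference of 0.15 had an SE of 0.19. Oip5, on the opposite strand over part of Nusap1, held 16.9% as many counts. Its log2 fold change was 0.60 in MA9 cells (edgeR adjusted p = 0.0269) and 0.69 in WT cells (edgeR adjusted p = 0.0370).

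Tpx2, the activator of Aurora A on the spindle, overlapped in MA9 cells, with 136, 133 and 138 CPM in the MA9 sPrdm16 libraries, against 126, 138 and 152 CPM in MA9 mock. In WT cells it was apart, with 62.6, 57.1 and 68.6 CPM in the WT sPrdm16 libraries, against 31.6, 43.9 and 28.4 CPM in WT mock, and rose by 0.86 (SE 0.16, edgeR adjusted p = 0.000721). The difference between its effects was -0.80 (SE 0.18, edgeR adjusted p = 0.00248). The plus-end motor gene Kif11 rose in WT cells by 0.83 and the hyaluronan-mediated motility receptor gene Hmmr by 0.76. In MA9 cells they stood at 0.07 and 0.14.

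In the group of 7 midzone and cytokinesis genes, 6 rose in WT and 3 in MA9 cells. Racgap1 and Kif23 encode the 2 subunits of centralspindlin, which gathers at the midzone and recruits Ect2. Racgap1 had 60.1, 62.5 and 61.1 CPM in the MA9 sPrdm16 libraries, against 44.5, 51.0 and 47.7 CPM in MA9 mock. It had 73.2, 68.5 and 58.5 CPM in the WT sPrdm16 libraries, against 44.8, 30.5 and 38.8 CPM in WT mock, and neither genotype overlapped. Racgap1 rose by 0.36 (SE 0.07, edgeR adjusted p = 0.00504) in MA9 and by 0.81 (SE 0.15, edgeR adjusted p = 0.000707) in WT cells. Kif23 had 41.2, 40.8 and 39.5 CPM in the MA9 sPrdm16 libraries, against 32.9, 28.9 and 36.9 CPM in MA9 mock. In WT cells Kif23 had 38.6, 40.7 and 35.7 CPM in the WT sPrdm16 libraries, against 24.1, 29.8 and 26.6 CPM in WT mock. It rose by 0.31 (SE 0.10, edgeR adjusted p = 0.0346) in MA9 and by 0.51 (SE 0.14, edgeR adjusted p = 0.0120) in WT cells, and for neither subunit did the difference pass the test. Ect2, the exchange factor for RhoA, did not pass in either genotype (0.11 in MA9 and 0.34 in WT cells).

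Prc1, the bundler of antiparallel midzone microtubules, overlapped in MA9 cells, with 92.4, 97.0 and 93.5 CPM in the MA9 sPrdm16 libraries, against 81.8, 84.8 and 93.2 CPM in MA9 mock. Its WT groups were far apart, with 53.2, 50.9 and 44.0 CPM in the WT sPrdm16 libraries, against 27.5, 24.1 and 27.8 CPM in WT mock. Prc1 rose in WT cells (log2 0.90, SE 0.14, edgeR adjusted p = 0.00016) and differed between the genotypes by -0.69 (SE 0.14, edgeR adjusted p = 0.00121). Rccd1, on the opposite strand over part of Prc1, held 10.0% as many counts. Its log2 fold change was -0.86 in MA9 cells (edgeR adjusted p = 0.0170) and 1.29 in WT cells (edgeR adjusted p = 0.00194). Kif20a, a motor that brings the passenger complex and Plk1 to the midzone, rose by 0.27 in MA9 and 1.07 in WT cells, and its MA9 call was lost under 9 of 15 alternatives. Cdc23 overlaps it on the opposite strand, held 71.5% as many counts and had a WT log2 fold change of 0.43 (edgeR adjusted p = 0.0404). The chromokinesin gene Kif4 and the anillin gene Anln, a scaffold of the contractile ring, rose in WT cells by 0.92 and 0.98. In MA9 cells they stood at 0.02 and 0.08. Pdzd11, on the opposite strand over part of Kif4, held 66.6% as many counts and stood at 0.10 in MA9 and -0.08 in WT cells without passing the test.

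Condensin I folds mitotic chromosomes, and its 5 subunits moved unequally. Ncaph, the kleisin subunit, had 37.2, 35.6 and 33.1 CPM in the MA9 sPrdm16 libraries, against 24.8, 25.3 and 27.2 CPM in MA9 mock. WT cells had 28.3, 22.5 and 22.6 CPM in the WT sPrdm16 libraries, against 14.3, 9.06 and 9.66 CPM in WT mock. The groups did not overlap, and Ncaph rose by 0.46 (SE 0.09, edgeR adjusted p = 0.00341) in MA9 and 1.15 (SE 0.21, edgeR adjusted p = 0.00069) in WT cells. Ncapd2, a HEAT-repeat subunit, had 167, 171 and 166 CPM in the MA9 sPrdm16 libraries, against 159, 156 and 146 CPM in MA9 mock, which were apart without passing the test (log2 0.12, SE 0.06, edgeR adjusted p = 0.128). In WT cells it had 86.7, 77.1 and 88.4 CPM in the WT sPrdm16 libraries, against 48.2, 48.6 and 28.3 CPM in WT mock, with WT mock replicate 3 well below the others, and rose by 1.01 (SE 0.17, edgeR adjusted p = 0.000367). Scarna10, a small RNA within Ncapd2 on the same strand, held 23.5% as many counts and had a log2 fold change of -1.72 in MA9 cells (edgeR adjusted p = 0.000406). Ncapg rose in WT cells by 0.49. Lcorl, on the opposite strand over part of Ncapg, held 49.7% as many counts and stood at 0.41 in MA9 and -0.36 in WT cells without passing the test. Of the 2 ATPase subunits, which condensin I shares with condensin II, Smc2 rose by 0.19 in MA9 cells, a call lost under 10 of 15 alternatives, and by 0.38 in WT cells, while Smc4 passed in neither (0.10 and -0.08). Top2a, the topoisomerase that untangles sister chromatids, had 620.5, 623 and 612 CPM in the MA9 sPrdm16 libraries, against 493, 541 and 545 CPM in MA9 mock. In WT cells Top2a had 171, 160.4 and 171 CPM in the WT sPrdm16 libraries, against 107, 110.3 and 98.9 CPM in WT mock. It rose in both genotypes without overlap, by 0.23 (SE 0.06, edgeR adjusted p = 0.0115) in MA9 and 0.67 (SE 0.09, edgeR adjusted p = 5.2e-05) in WT cells, and the difference was -0.35 (SE 0.11, edgeR adjusted p = 0.0204).

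Foxm1, a transcription factor of G2 and M phase genes, had 26.5, 24.8 and 27.9 CPM in the MA9 sPrdm16 libraries, against 30.3, 27.2 and 25.2 CPM in MA9 mock. In WT cells Foxm1 had 19.2, 21.7 and 29.5 CPM in the WT sPrdm16 libraries, against 12.05, 4.39 and 15.0 CPM in WT mock, with WT mock replicate 2 the lowest library. It overlapped in MA9 cells (log2 -0.07, SE 0.10, edgeR adjusted p = 0.632) and rose in WT cells by 1.16 (SE 0.33, edgeR adjusted p = 0.0129), with a difference of -1.15 (SE 0.40, edgeR adjusted p = 0.0424). Mki67 encodes the proliferation antigen Ki-67 that coats mitotic chromosomes (ENSMUSG00000031004.8, chr7:135689784-135716361 in mm10). Of the 45 it had the highest mean CPM in each group, with no account taken of its length of 10061 bases. It had 1399.8, 1330.4 and 1304 CPM in the MA9 sPrdm16 libraries, against 974, 1105 and 1124 CPM in MA9 mock. In WT cells Mki67 had 165, 184 and 193 CPM in the WT sPrdm16 libraries, against 147, 158 and 135 CPM in WT mock. Neither genotype overlapped, and Mki67 rose by almost the same step in both, 0.33 (SE 0.07, edgeR adjusted p = 0.00423) in MA9 and 0.30 (SE 0.10, edgeR adjusted p = 0.0254) in WT cells.

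Levels in MA9 mock and WT mock are given without a test, because each genotype had its own table and the 2 cannot be told apart. They were scaled over all 12 libraries. For 38 of the 45 genes the lowest MA9 mock library was above the highest WT mock library, for 1 the reverse held and 6 overlapped. Among all genes 34.4% were apart with MA9 mock higher and 37.9% with MA9 mock lower. The median ratio, MA9 mock over WT mock, was 3.68 for the mitotic genes and 0.954 for all genes. Between the 2 sPrdm16 groups the median ratio was 2.48. With total counts 19 of the 45 were higher and 7 lower in MA9 mock. Mki67 had the highest ratio, with 1280.1 ± 88.7 CPM in MA9 mock, against 118 ± 9.39 CPM in WT mock (SD, n = 3 each). Kif11 averaged 199.9 ± 8.31 CPM in MA9 mock, against 19.5 ± 4.98 CPM in WT mock. Bub3 was the gene that was lower, with 54.1 ± 4.07 CPM in MA9 mock, against 114 ± 11.3 CPM in WT mock, and Ccnb2, Cdc25b, Cdc20, Ube2c, Cenpa and Birc5 overlapped.

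These ratios went with gene length. Across the 45 genes the ratio of MA9 mock to WT mock and the length in the authors' tables had a Spearman correlation of 0.59, and across 11873 protein-coding genes one of 0.38. Those genes were split by length into 4 bins of equal size. In the shortest bin, up to 2210 bases, the median log2 ratio was 0.95 for the 8 mitotic genes in it and -1.18 for all genes. In the next bin, up to 3383 bases, the medians were 1.35 for the 8 mitotic genes and -0.43 for all genes. From 3384 to 4774 bases they were 2.29 for 21 mitotic genes and 0.02 for all genes, and above that 2.74 for 8 mitotic genes and 0.75 for all genes. The part of length in the ratios was not tested. The effects of sPrdm16 within a genotype went with length less closely. Their Spearman correlations with length over the 45 genes were -0.19 in MA9 and -0.26 in WT cells. Over the protein-coding genes tested they were closer to none, at -0.09 in MA9 and -0.03 in WT cells.

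**Figure D4:**
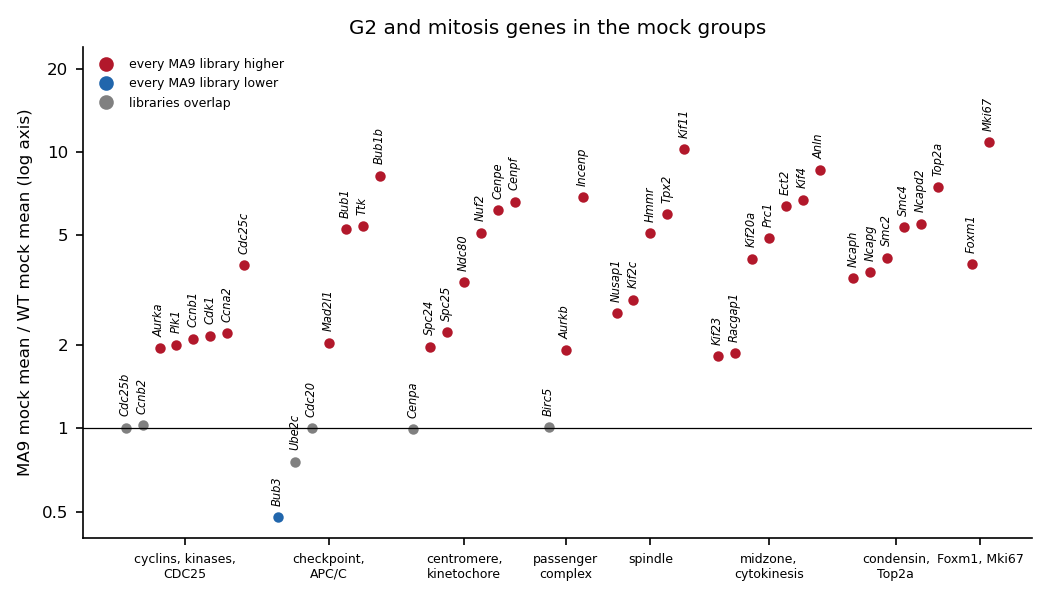
Ratio of the mean in MA9 mock to the mean in WT mock (log axis, CPM scaled over all 12 libraries) for the 45 genes by role, coloured by whether the 3 libraries of each group were apart. Most genes lie above 1, up to 10.9 for Mki67, and Bub3 lies at 0.476.

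Per kilobase of gene length, on the same scale, the order of the levels differed between the genotypes. In MA9 mock Mki67 (127 ± 8.81 CPM per kb), Top2a (121 ± 5.94) and Smc4 (108 ± 7.53) led (SD, n = 3), and Mki67 and Top2a did not differ beyond their spread. Cdc25b (4.27 ± 1.01) and Cdc25c (4.99 ± 0.865) were lowest there and did not differ beyond their spread. In WT mock Ube2c (28.7 ± 1.83 CPM per kb), Bub3 (28.3 ± 2.81) and Ccnb2 (25.4 ± 2.01) led and lay within their spread of one another. Cdc25c (1.28 ± 0.239) and Ttk (1.62 ± 0.131) were lowest. The 4 subunits of the NDC80 complex lay close together in MA9 mock, between 14.5 ± 2.51 CPM per kb for Ndc80 and 21.1 ± 5.12 for Spc25. In WT mock they spread from 3.60 ± 0.759 for Nuf2 to 9.47 ± 1.51 for Spc25. The shorter Spc24 and Spc25 (1696 and 1869 bases) had ratios of MA9 mock to WT mock of 1.98 and 2.23. For the longer Ndc80 and Nuf2 (3847 and 3888 bases) the ratios were 3.38 and 5.10. The part of length in these orders was not tested, and genotype and table cannot be told apart.

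Other genes of the division cycle, given by lists, did not all follow the 45. Of 85 other mitotic genes 3 rose and 17 fell in MA9 cells, with a median of -0.05, and 45 rose and 3 fell in WT cells, with a median of 0.64. Of all genes tested 17.1% rose and 17.5% fell in MA9 cells, so the share of falls in this list there was near the background. In WT cells 17.5% of all genes rose and 16.6% fell. The effect was lower in MA9 for 41 of the 85 and higher for 2, against 12% and 16% of all genes. The smallest p in MA9 cells was that of Arhgap11a, a RhoA regulator of cytokinesis, which fell (-0.91 (SE 0.09, edgeR adjusted p = 7.2e-05)), followed by Depdc1b (-0.87 (SE 0.12, edgeR adjusted p = 0.000586)), while the Cdk subunit gene Cks1b rose (0.57 (SE 0.08, edgeR adjusted p = 0.000829)). In WT cells the chromokinesin gene Kif22 (1.27 (SE 0.16, edgeR adjusted p = 2.4e-05)), the passenger gene Cdca8, which encodes borealin (0.87 (SE 0.11, edgeR adjusted p = 3.8e-05)), and Pimreg (1.55 (SE 0.20, edgeR adjusted p = 3.9e-05)) had the smallest p-values. With total counts 80 of these 85 rose and 0 fell in MA9 cells, with a median of 1.37, and Arhgap11a and Depdc1b stood at 0.48 and 0.52, below the 1.43 of all genes. Borealin stood at -0.04 in MA9 cells.

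Subunits of the anaphase-promoting complex, which degrades cyclin B, were called in WT cells in 43.8% of cases, against 34.1% of all genes in either direction. Of 16, 4 rose and 0 fell in MA9 cells, where 17.1% of all genes rose, and 5 rose and 2 fell in WT cells, with a median of 0.20. Fzr1 (Cdh1), the late activator of the complex, rose in MA9 cells by 0.68 (SE 0.12, edgeR adjusted p = 0.00199), and Anapc10 and Anapc1 by 0.94 (SE 0.19, edgeR adjusted p = 0.00442) and 0.21 (SE 0.05, edgeR adjusted p = 0.0127). In WT cells Anapc5 and Anapc7 rose by 0.63 (SE 0.10, edgeR adjusted p = 0.000201) and 0.91 (SE 0.16, edgeR adjusted p = 0.00064), and Anapc11, the RING subunit, stood at -0.51 (SE 0.12, edgeR adjusted p = 0.00526). Of 15 genes for MuvB, DREAM, B-MYB and NF-Y factors, 2 rose and 1 fell in MA9 cells and 4 rose and 1 fell in WT cells. Counted in either direction, this list was called no more often than all genes, of which 34.6% were called in MA9 and 34.1% in WT cells. Mybl2 (B-MYB), which joins MuvB to activate mitotic genes, stood at -0.38 (SE 0.08, edgeR adjusted p = 0.00627) in MA9 cells and at 1.85 (SE 0.21, edgeR adjusted p = 1.0e-05) in WT cells, opposite calls, with an MA9 value of 1.01 under total counts. In MA9 cells the NF-Y subunit gene Nfyc and the E2F partner gene Tfdp2 rose by 0.48 (SE 0.12, edgeR adjusted p = 0.0123) and 0.49 (SE 0.12, edgeR adjusted p = 0.0136). Rbbp4, a MuvB subunit, rose by 0.60 (SE 0.09, edgeR adjusted p = 0.000123) in WT cells and E2f4, the E2F factor of DREAM, by 0.60 (SE 0.11, edgeR adjusted p = 0.000988).

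Of 47 DNA replication and S phase genes 34 rose and 1 fell in WT cells, with a median of 0.88, and 12 rose and 8 fell in MA9 cells, with a median of 0.06. Of all genes tested 17.5% rose and 16.6% fell in WT cells, and 17.1% rose and 17.5% fell in MA9 cells. The helicase genes Mcm5 (1.81 (SE 0.11, edgeR adjusted p = 1.5e-08)), Mcm6 (1.53 (SE 0.11, edgeR adjusted p = 1.1e-07)) and Mcm7 (1.65 (SE 0.12, edgeR adjusted p = 1.4e-07)) had the smallest p-values in WT cells, while Mcm10 had a larger fold change (2.10 (SE 0.24, edgeR adjusted p = 1.2e-05)). In MA9 cells Mcm6 rose by 0.34 (SE 0.05, edgeR adjusted p = 0.000856) and Mcm4 by 0.41 (SE 0.06, edgeR adjusted p = 0.00120), while Pola1, the catalytic subunit of polymerase alpha, fell (-0.44 (SE 0.07, edgeR adjusted p = 0.000994), and 0.96 with total counts). Of 14 genes for G1 cyclins, their kinases and Cdk inhibitors, 3 rose and 8 fell in WT cells, and of the 11 tested in MA9 cells 3 rose and 2 fell. In WT cells the cyclin gene Ccnd3 fell (-0.94 (SE 0.08, edgeR adjusted p = 4.2e-07)) and its kinase gene Cdk4 rose (0.67 (SE 0.08, edgeR adjusted p = 2.3e-05)). The inhibitor gene Cdkn2b (p15) fell there (-2.85 (SE 0.38, edgeR adjusted p = 4.9e-05)). In MA9 cells Cdkn1c (p57) and Cdkn2d (p19) rose, by 1.74 (SE 0.21, edgeR adjusted p = 0.000265) and 0.98 (SE 0.16, edgeR adjusted p = 0.00142), and Cdkn2c (p18) fell (-0.77 (SE 0.11, edgeR adjusted p = 0.000846), and 0.65 with total counts).

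**Figure D5:**
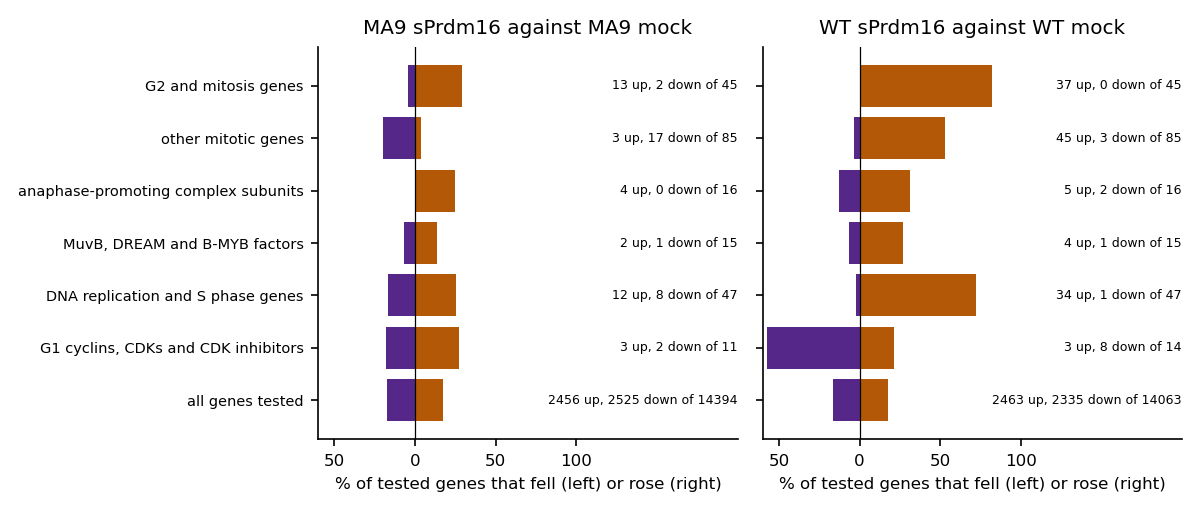
Percentage of the tested genes of each list that rose (right of 0) or fell (left of 0) with sPrdm16, in MA9 cells (left panel) and WT cells (right panel), with the counts printed. The 45 G2 and mitosis genes rose in 37 cases in WT cells and in 13 in MA9 cells, against 17.5% and 17.1% of all genes.

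Markers of other cell types also differed between the groups. As a background to the counts below, 17.5% of all genes tested rose and 16.6% fell in WT cells. The MA9 shares were 17.1% and 17.5%. Of 8 neutrophil markers 7 fell in WT cells, with a summed level of 4671 to 5152 CPM in WT sPrdm16, against 24736 to 30665 CPM in WT mock. All 7 mast cell and basophil markers fell, with 392 to 416 CPM in WT sPrdm16 and 4913 to 5412 CPM in WT mock. Of 4 eosinophil markers tested 3 fell, with 15.9 to 21.8 CPM in WT sPrdm16 and 275 to 315 CPM in WT mock. Ccr3 was at 0 in every library of WT sPrdm16 and of both MA9 groups. Of 4 progenitor markers 3 rose, with 75.4 to 90.8 CPM in WT sPrdm16 and 36.9 to 48.0 CPM in WT mock. Of 7 monocyte markers tested 1 rose and 4 fell, with 1127 to 1209 CPM in WT sPrdm16 and 1704 to 1764 CPM in WT mock. Of 7 erythroid markers 3 rose and 2 fell, with 446 to 503 CPM in WT sPrdm16 and 248 to 314 CPM in WT mock. Stromal and endothelial markers, of which 1 rose and 1 fell, summed to 89.9 to 107 CPM in WT sPrdm16 and 69.2 to 70.9 CPM in WT mock. The part of these shifts in the mitotic genes' rises was not tested. In MA9 cells 6 of 7 monocyte markers tested and 3 of 4 eosinophil markers tested fell, and 5 of 7 mast cell and basophil markers were at 0 in every library of both MA9 groups. Of 8 neutrophil markers 1 rose and 4 fell in MA9 cells, while their sum was 1008 to 1051 CPM in MA9 sPrdm16 and 753 to 956 CPM in MA9 mock. Both stromal and endothelial markers that could be tested rose, with a sum over the 6 of 62.5 to 64.3 CPM in MA9 sPrdm16 and 14.1 to 16.5 CPM in MA9 mock. Monocyte markers summed to 319 to 333 CPM in MA9 sPrdm16 and 295 to 448 CPM in MA9 mock.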

How the data were processed

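RNA-seq of 12 mouse bone marrow libraries (4 groups of 3) was used. Per the labels' protocols, RNeasy columns gave the RNA and Nextera XT the libraries. The authors deposited expected counts, estimated counts per gene that need not be whole, in 1 table per genotype. Per the submitters' processing notes, DRAGEN (no version named) and genome build mm10 were used. How strand was handled is not given in the sources used here. Between 5.19% and 10.2% of values per library were not whole, and all were rounded.

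Genes were tested with edgeR 4.0.16 (R 4.3.3), with TMM scaling, filterByExpr (minimum count 10) and its robust quasi-likelihood test. Each genotype had a fit on its own 6 libraries, and the difference of effects one on all 12. P-values were adjusted by Benjamini-Hochberg over all genes tested (14394, 14063 and 16194), threshold 0.05, and a gene is said to rise or fall only past it. SE of log2 fold changes come from the F statistic. The scripts were tested on simulated counts. Alternatives were RLE scaling, total counts, other filters, DESeq2 1.42.0, limma-voom (limma 3.58.1), protein-coding rows alone, a replicate block, all 12 libraries and leaving out each library. Depth was 17217123 to 37390897 counts per library.

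The 45 genes and all lists were chosen with earlier results of these data known. By rule, values per library are given for the 2 genes of each role with the smallest p in each genotype and the 6 with the smallest p for the difference. For each other list, the 3 smallest p per genotype are named. Promoters came from RefSeq.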

Additional observations from a re-analysis of the deposited data

Results flagged for a closer look

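The effect of sPrdm16 differed between MA9 and WT cells in 24 of the 45 genes by the interaction test of edgeR, with an adjusted p under 0.05, and in each the MA9 effect was the lower. Differences are log2 values, MA9 effect minus WT effect. Among cyclins, kinases and phosphatases they were -0.59 for Ccnb1, -0.87 for Cdk1, -0.70 for Plk1, -0.79 for Aurka and -1.35 for Cdc25c. In the spindle checkpoint the values were -0.88 for Bub1, -1.37 for Bub1b, -0.87 for Ttk and -0.77 for Cdc20. Spc24 (-0.64) was the kinetochore gene past the test, and Aurkb (-0.75) and Incenp (-1.35) those of the passenger complex. Spindle genes past it were Kif11 (-0.68), Kif2c (-0.85), Tpx2 (-0.80) and Hmmr (-0.54). Midzone and cytokinesis genes past it were Kif20a (-0.72), Kif4 (-0.82), Prc1 (-0.69) and Anln (-0.82). The last were Ncapd2 (-0.81), Ncaph (-0.62), Top2a (-0.35) and Foxm1 (-1.15). In Bub1b and Incenp both effects were called and had opposite signs. Groups of 3 libraries were too small to test single libraries as outliers.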

How the results depend on the processing

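The count of rises in WT cells kept within 28 to 40 of 45 under every alternative, and 25 of the 37 rises were called under each. In MA9 cells 6 of 15 calls, and 7 with total counts left aside, were. Of the 24 called differences 16 were called under each alternative but total counts. With total counts alone, 45 rose and 0 fell in MA9 cells, 17 differences were higher and 0 lower in MA9, and 19 genes were higher and 7 lower in MA9 mock than in WT mock. With no filter 23 rose in MA9 cells, and with all 12 libraries in the fit 1 fell. Leaving out 1 library gave 6 to 17 rises and 2 to 4 falls in MA9 cells, 28 to 34 rises and 0 falls in WT cells, and 18 to 24 lower and 0 to 1 higher differences. In the mock groups it gave 38 to 39 genes higher and 1 to 2 lower. The replicate block gave 10 rises and 2 falls in MA9 cells, 36 rises in WT cells and 24 lower differences. The deviations of same-numbered libraries correlated at -0.05 to 0.05, and the pairing is not in the design. With deviations taken from means of 3 libraries, this cannot show whether such libraries shared a culture or batch.

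With total counts, whose median shift of all genes was 1.43 in MA9 cells and 1.21 in the difference, 10 MA9 fold changes below 0 turned to values above it, which were 1.32 for Cdk1, 1.04 for Cdc25b, 1.21 for Cdc25c, 1.11 for Bub1b, 1.21 for Ttk, 1.27 for Cenpe, 1.28 for Spc25, 0.84 for Incenp, 1.42 for Tpx2 and 1.33 for Foxm1. Likewise 36 of the 40 differences below 0 turned, all but those of Cdc25c, Bub1b, Incenp and Foxm1. In 5 of these no call was made with either scaling, and they stood at 0.42 for Cdc25b, 0.66 for Mad2l1, 0.79 for Cenpa, 0.79 for Racgap1 and 0.86 for Ncapg. The other 31 stood at 0.98 for Ccna2, 0.57 for Ccnb1, 0.26 for Cdk1, 0.46 for Plk1, 0.39 for Aurka, 0.26 for Bub1, 0.29 for Ttk, 0.41 for Cdc20, 1.16 for Ube2c, 0.92 for Cenpe, 1.09 for Cenpf, 0.96 for Ndc80, 1.04 for Nuf2, 0.54 for Spc24, 0.96 for Spc25, 0.38 for Aurkb, and at 0.88 for Birc5, 0.49 for Kif11, 0.29 for Kif2c, 0.38 for Tpx2, 0.63 for Hmmr, 0.45 for Kif20a, 1.06 for Kif23, 0.34 for Kif4, 0.49 for Prc1, 0.35 for Anln, 1.01 for Ect2, 1.04 for Smc2, 0.34 for Ncapd2, 0.55 for Ncaph and 0.81 for Top2a. MA9 mock replicate 3, with 3844571 protein-coding counts, limits the precision of the MA9 values.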
